A study of Saccharomyces cerevisiae with 8 samples.

Results

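Footprints on unstable long noncoding RNAs were compared between a upf1 mutant and wild type (WT) in budding yeast treated with cycloheximide (CHX), which stops translating ribosomes. The measurements were ribosome profiling (Ribo-seq) reads in open reading frames (ORFs) of XUTs (Xrn1-sensitive unstable transcripts), noncoding RNAs that become visible when the exonuclease Xrn1 is lost. An ORF was included if it held at least 1 read in either group and did not lie on the 2-micron plasmid. This rule kept 7310 of the 13941 listed ORFs, in 1420 of the 1637 XUTs. The deposited table gives 1 merged value per group of 2 libraries, so the spread between cultures is unknown and no test between the groups was possible. All intervals are 95% intervals for counting error, and they do not cover variation between cultures.

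Both groups were strain BY4741, MATa, with the alleles his3Δ1, leu2Δ0, met15Δ0 and ura3Δ0, and the mutant also carried upf1*::kanMX4, written here as in the labels. Mid-log cultures in YPD (30 °C, OD600 0.5) were given CHX for 15 min. Untreated WT and upf1 cells, the other 2 groups of the study, are used below only as a separate comparison that shares no library with the CHX-treated pair. No listed ORF lay on or opposite the gene for Upf1, so the table offers no check of the mutation itself.

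Upf1 is the RNA helicase at the centre of nonsense-mediated decay (NMD), a pathway that acts when a ribosome terminates far from the normal end of a message. Transcripts with short ORFs followed by long untranslated stretches are typical targets. XUTs carry small ORFs, often several, but where each transcript ends is not given in the data used here. Many XUTs run antisense to a protein-coding gene. With CHX, ribosomes are held on the RNA, so footprints report where ribosomes stood and also how much of each RNA was there; those contributions cannot be told apart in these data.

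The most read ORF of 9 XUTs named below for their share is shown here, to show what ribosomes stood on in these transcripts. Each is printed 5′ to 3′ on its own strand from RefSeq's R64 sequence, with 6 bases before the start, and the start and stop codons in capitals. XUT0340, XUT1101, XUT1433, XUT0869 and XUT1700 took a larger share of the reads in upf1 + CHX, and XUT0372, XUT0684, XUT0942 and XUT0544 a smaller one.
XUT0340 ORF 2 (chr7:308970-309029, + strand): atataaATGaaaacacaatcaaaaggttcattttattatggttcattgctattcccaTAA
XUT1101 ORF 2 (chr4:1235966-1236094, - strand): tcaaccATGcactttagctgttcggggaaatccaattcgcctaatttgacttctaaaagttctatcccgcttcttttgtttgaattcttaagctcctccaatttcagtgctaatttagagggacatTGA
XUT1433 ORF 1 (chr11:265805-265951, - strand): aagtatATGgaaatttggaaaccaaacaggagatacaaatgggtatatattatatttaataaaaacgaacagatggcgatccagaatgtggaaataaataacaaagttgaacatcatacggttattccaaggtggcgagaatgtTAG
XUT0869 ORF 3 (chr16:243225-243431, + strand): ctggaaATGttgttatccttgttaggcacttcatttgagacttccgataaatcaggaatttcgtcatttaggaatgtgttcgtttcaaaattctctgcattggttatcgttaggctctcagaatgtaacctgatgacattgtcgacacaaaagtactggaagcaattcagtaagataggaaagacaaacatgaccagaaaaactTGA
XUT1700 ORF 3 (chr15:522508-522531, - strand): aacaatATGagcgtgatgaaaTGA
XUT0372 ORF 1 (chr7:738538-738600, + strand): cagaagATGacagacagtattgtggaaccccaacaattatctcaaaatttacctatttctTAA
XUT0684 ORF 1 (chr13:58949-59050, + strand): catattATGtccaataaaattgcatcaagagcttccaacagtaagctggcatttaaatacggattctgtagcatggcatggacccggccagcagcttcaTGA
XUT0942 ORF 3 (chr1:183200-183364, - strand): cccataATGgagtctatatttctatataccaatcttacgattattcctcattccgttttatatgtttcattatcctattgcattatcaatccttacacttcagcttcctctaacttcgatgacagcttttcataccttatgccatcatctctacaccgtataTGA
XUT0544 ORF 1 (chr10:459616-459666, + strand): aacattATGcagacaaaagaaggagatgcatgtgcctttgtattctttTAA

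The included ORFs held 33176 reads in WT + CHX and 41067 in upf1 + CHX. Their length ran from 15 to 4038 nt, with 60 nt as the median. Reads were found in both groups for 3971 ORFs, in upf1 + CHX alone for 1814 and in WT + CHX alone for 1525. ORFs read in 1 group were shallow: 70.1% of the former and 74.6% of the latter rested on a single read, and the most reads were 17 and 8. Reads can be shared between ORFs that overlap on 1 strand, which 4748 of those included (65.0%) did. Reads per XUT were therefore summed over a set of 5029 included ORFs that do not overlap, with 25568 reads in WT + CHX and 31629 in upf1 + CHX. The share of a XUT is its reads divided by that total, and the share ratio is the share in upf1 + CHX over the share in WT + CHX. These totals come from XUT ORFs alone, so library depth is unknown and a ratio of 1 means an unchanged place among XUTs, not an unchanged amount.

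Most XUTs took a similar share of the footprints in both strains. Among the 631 XUTs with at least 20 reads over both groups, which held 91.0% of the compared reads, the median share ratio was 0.966 (log2 -0.05) and the quartiles were 0.720 and 1.25. In upf1 + CHX, 33 XUTs (5.23% of those compared) had at least a 2-fold larger share, and 45 (7.13%) had a share at most 0.5 times that in WT + CHX. The ratios nearest the limits were 2.02 inside and 1.99 outside on the upper side, and 0.497 inside and 0.50 outside on the lower side. The counting interval left out 1 for 110 XUTs (17.4%), above it for 51 (8.08%) and below it for 59 (9.35%). The median number of reads was 51 for XUTs with a larger share and 29 for those with a smaller one, against 52 for those within 2-fold.

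**Figure D1:**
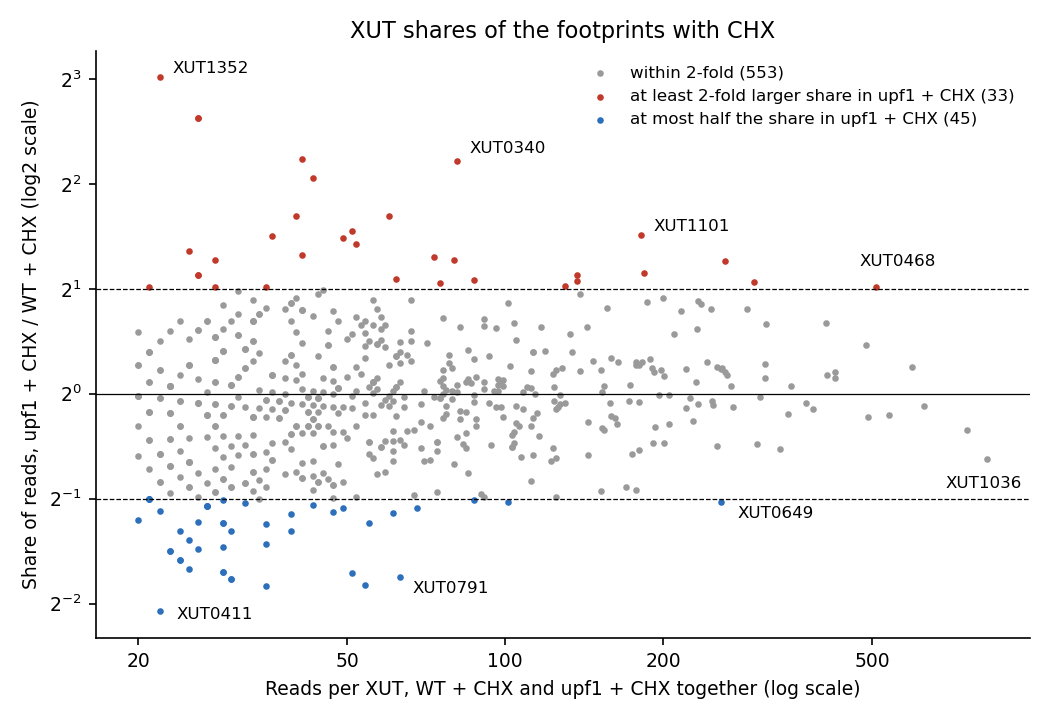
Share ratio (upf1 + CHX over WT + CHX, log2 scale) of 631 XUTs against their reads in both groups together (log scale), with dashed lines at 2-fold. Red points are the 33 XUTs with a larger share in upf1 + CHX and blue points the 45 with a smaller one. The most read, XUT1036, lies at 0.650.

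The larger shares were described first, from the 12 XUTs whose counting interval had the highest lower bound, which were picked for their size. Of these, 8 lay antisense to a coding sequence (CDS), as did 63.9% of all XUTs compared. XUT0340 led them. It lies antisense to VPS73, a gene for a putative transporter of the sugar porter family, on chromosome 7 (first to last ORF 308931 to 310140). It held 12 reads in WT + CHX and 69 in upf1 + CHX, a 4.65-fold larger share (2.50 to 9.43). The reads lay in several neighbouring ORFs. The 51-nt ORF 2 printed above went from 3 to 27 reads, the 63-nt ORF 4 from 2 to 22 and the 540-nt ORF 6 from 3 to 12. Without CHX the transcript held 6 reads in WT and 48 in upf1, a ratio of 1.51 (0.647 to 4.33) whose interval includes 1.

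XUT1101 lies antisense to ARO10, the phenylpyruvate decarboxylase of the Ehrlich pathway, on chromosome 4 (1234074 to 1236180). It had 40 reads in WT + CHX and 141 in upf1 + CHX, a 2.85-fold larger share (1.99 to 4.16). Its 120-nt ORF 2 supplied 28 and 100 of those reads. In untreated cells 25 reads in WT and 154 in upf1 gave a ratio of 1.17 (0.760 to 1.86). The interval for CHX lay wholly above the untreated one.

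Strong read numbers also stood behind XUT0869, XUT1433, XUT0468 and XUT1133. XUT0869, antisense to the uncharacterised gene YPL162C, had 66 reads in WT + CHX and 196 in upf1 + CHX (2.40-fold, 1.81 to 3.22). Its 198-nt ORF 3 alone went from 50 to 187 reads (3.02-fold, 2.2 to 4.22), while its 45-nt first ORF had 7 and 5. The reads that differed were thus in 1 ORF opposite the gene. XUT1433, antisense to MBR1, a gene for a protein of mitochondrial function, had 83 and 215 reads (2.09-fold, 1.62 to 2.73), nearly all in its 138-nt first ORF. Summed over all its listed ORFs, overlapping ones included, it was at 1.95 and short of 2-fold. XUT1133, on chromosome 5 beside a tRNA gene, had 49 and 135 reads (2.23-fold, 1.60 to 3.15), all but 1 of them in a 156-nt first ORF.

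XUT0468 was the only one of the 12 that overlaps a gene on its own strand. That gene is SDL1, a serine dehydratase pseudogene whose reading frame is broken in the reference strain. The 381-nt first ORF of the XUT begins where SDL1 begins (chromosome 9, 29032) and held 135 reads in WT + CHX and 355 in upf1 + CHX, 2.13-fold (1.74 to 2.61). The 630-nt ORF downstream, also within SDL1, held 6 and 7 reads. Footprints thus stood before the stop codon and hardly after it, in both strains. Whether these reads belong to the XUT or to the SDL1 transcript cannot be told from the table. Without CHX the whole XUT showed 43 and 411 reads, a ratio of 1.81 (1.32 to 2.54).

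The other members of the 12 were thinly read in WT. XUT1352, antisense to the allantoin permease gene DAL4, went from 2 to 20 reads (8.08-fold, 1.96 to 71.3). XUT0325, antisense to the mannosyltransferase gene MNT2, and XUT0788, at the left end of chromosome 15, each went from 3 to 23 (6.20-fold, 1.87 to 32.2). In XUT0325 the 18-nt ORF 1, which overlaps no CDS, held 0 and 17 of those reads. XUT0788 overlaps a long terminal repeat, whose copies can share reads. Summed over all listed ORFs, XUT0325 was at 2.93-fold (8 and 29 reads) and XUT0788 at 7.47-fold. The 8.08-fold and 6.20-fold ratios divide by at most 3 WT reads, and their upper bounds show how little fixes them. XUT0824, beside a tRNA gene on chromosome 15, had 6 and 35 reads (4.72-fold, 1.96 to 13.7), and was at 3.19-fold over all its listed ORFs (18 and 71 reads). XUT1700, antisense to RGS2, a GTPase-activating protein of glucose signalling, had 7 and 36 reads (4.16-fold, 1.82 to 11.1), of which 3 and 23 fell in the 15-nt ORF 3 printed above. XUT0614, antisense to KNS1, a LAMMER-family protein kinase, had 12 and 48 reads in 1 ORF of 246 nt (3.23-fold, 1.69 to 6.69). The remaining 21 XUTs past 2-fold had ratios of 2.02 to 3.23 on 21 to 137 reads.

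In the other direction, only 3 of the 12 XUTs whose counting interval had the lowest upper bound lay antisense to a CDS. XUT0791, beside the isomaltase gene IMA2 on chromosome 15 (21943 to 22254), held 46 reads in WT + CHX and 17 in upf1 + CHX, a share ratio of 0.299 (0.161 to 0.531). Both of its read ORFs were lower, the 123-nt one with 30 and 14 reads and the 66-nt one with 16 and 3. XUT0372, 120 nt upstream of a tRNA gene on chromosome 7, had 40 and 14 reads in its 54-nt first ORF (0.283, 0.142 to 0.531). XUT0684, antisense to MDM1, a tether between the endoplasmic reticulum and the vacuole, had 37 and 14 reads in a 93-nt first ORF (0.306, 0.153 to 0.579). For these 3, untreated WT cells held only 1 or 2 reads, and the untreated ratios (0.946, 1.89 and 1.13) have intervals that span both directions.

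XUT0679, antisense to the telomere-length regulator gene RIF2, was the best read antisense member, with 107 and 70 reads (0.529, 0.386 to 0.721). Its 3 most read ORFs were all lower: 48 and 33 reads in the 147-nt ORF 2, 31 and 19 in the 126-nt ORF 6, and 18 and 9 in the 48-nt ORF 8. XUT0233, antisense to the dynein light chain gene DYN2, had 77 and 48 reads in 1 ORF of 150 nt (0.504, 0.344 to 0.732), and was at 0.451 over all its listed ORFs. A smaller share in the mutant was therefore also seen opposite coding sequences.

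XUT0649 was the most read of the smaller shares, with 160 reads in WT + CHX and 97 in upf1 + CHX (0.490, 0.377 to 0.635). It lies in the ribosomal DNA of chromosome 12 (460405 to 460699), whose repeats can share reads. Its 102-nt first ORF supplied 142 and 85 of them. Untreated cells gave 28 and 35 reads, a ratio of 0.236 (0.140 to 0.403), so the share was smaller in upf1 in both comparisons. XUT0544 and XUT0983 were alike in this: with CHX their ratios were 0.294 (0.113 to 0.686) each, on 22 and 8 reads, and untreated they were 0.126 (0.037 to 0.397) and 0.142 (0.021 to 0.838). XUT0942 and XUT1138, whose most read ORFs overlap long terminal repeats (LTRs), had 0.280 and 0.308. Summed over all listed ORFs, XUT1138 was at 0.624 (22 and 17 reads) and no longer past the limit. XUT0411 beside COS6 had 0.238 and XUT0630 beside NFG1 had 0.308. The 35 XUTs past the limit that are not among those named had ratios of 0.314 to 0.497 on 20 to 101 reads.

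**Figure D2:**
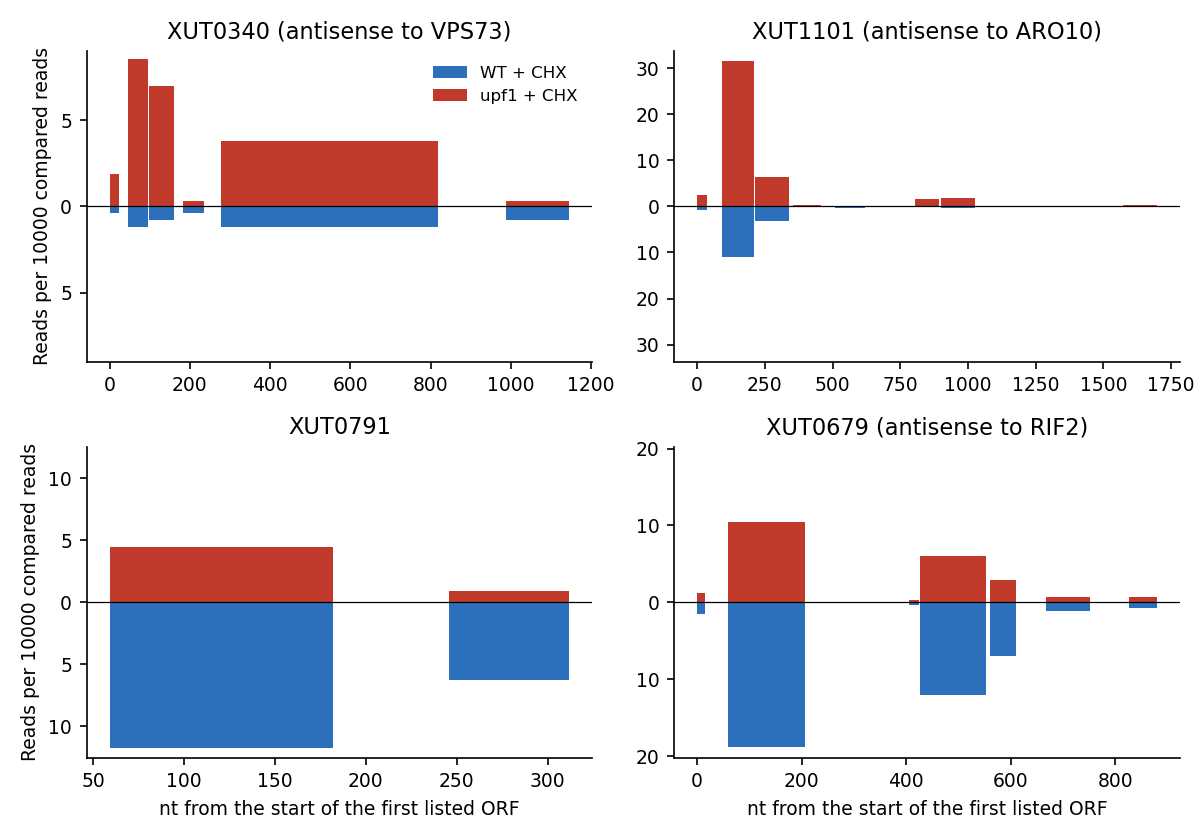
Reads per 10000 compared reads in the non-overlapping ORFs of 4 XUTs, against distance in nt from the start of the first listed ORF; bars above 0 are upf1 + CHX, bars below are WT + CHX, and bar width is the length of the ORF. In XUT0340 and XUT1101 the red bars near the 5′ end are the taller, and in XUT0791 and XUT0679 the blue bars are the taller for each ORF with many reads.

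The untreated pair was set beside the same XUTs. Of the 12 named for a larger share, the 9 with a read in untreated WT all had an untreated ratio above 1, and the interval left out 1 for XUT0869, XUT1433 and XUT0468. The other 3 had no read in untreated WT. Of the 12 named for a smaller share, 10 had an untreated ratio below 1 and 2 above it. The interval left out 1 only for XUT0649, XUT0544 and XUT0983. Apart from XUT0649 and XUT0544, each of the 12 had at most 4 reads in untreated WT, so the side of 1 was weakly fixed. Among all XUTs with at least 20 reads in each comparison and a read in each group, 20 of those with a larger share under CHX could be compared, and 18 of them had an untreated ratio above 1 (median 2.08). For the 230 XUTs within 2-fold under CHX, 146 were above 1, with a median of 1.32. Only 1 of the 45 XUTs with a smaller share, XUT0649, had that many untreated reads. The compared reads numbered 3195 in untreated WT and 16893 in untreated upf1. The minimum of 20 untreated reads was thus reached mostly through upf1 reads, which favours ratios above 1. These counts therefore cannot show whether the 2 comparisons agree. Across the 251 XUTs compared both ways, the log2 ratios had a Pearson r of 0.312 and a Spearman rho of 0.312, as a description over XUTs that share libraries and totals. Untreated WT was shallow, with a median of 5 reads per XUT there, and the 2-fold limit was passed upward by 33.2% of XUTs and downward by 8.88% in that comparison.

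**Figure D3:**
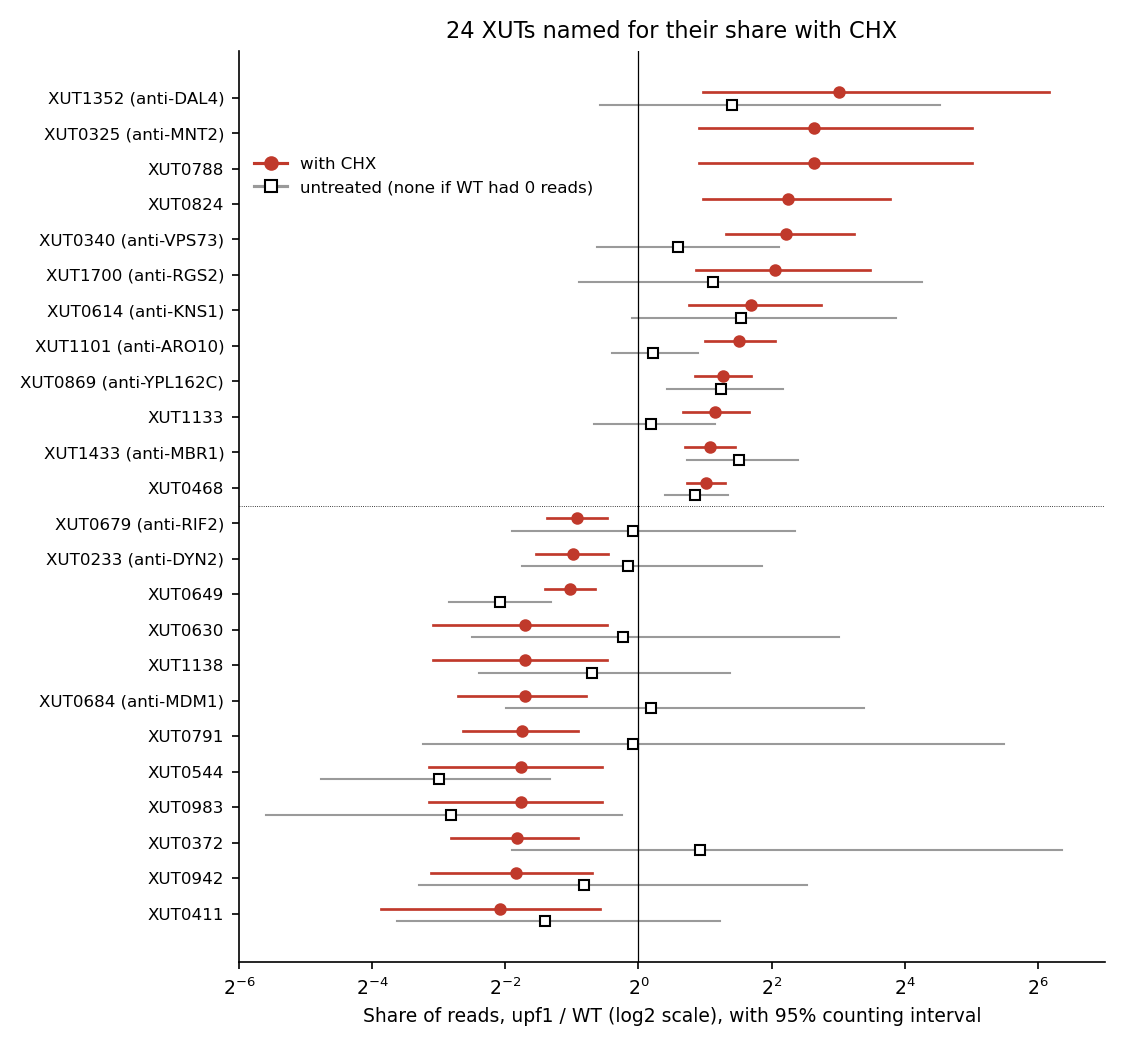
Share ratio, upf1 over WT (log2 scale), of the 24 XUTs named for their share, with 95% counting intervals; red circles are cells with CHX and open squares untreated cells, and XUTs antisense to a gene are marked with it. The 9 untreated squares in the upper group lie to the right of 1, while in the lower group XUT0372 and XUT0684 lie to its right.

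The 5 most read XUTs all lay within 2-fold, and the interval left out 1 for XUT1036, XUT1511 and XUT0083. XUT1036, antisense to the GTPase gene ARF2 and the glucose sensor gene RGT2, held the most reads, 459 in WT + CHX and 369 in upf1 + CHX (0.650, 0.565 to 0.747). Its 24-nt first ORF, beside ARF2, supplied 393 and 303 of them, and its remaining ORFs together held 66 in each group. XUT1511, antisense to GAS2, had 385 and 374 reads (0.785, 0.679 to 0.908). XUT0957, beside the ribosomal protein gene RPL19B, had 292 and 334 (0.925, 0.788 to 1.09), and XUT0083 on chromosome 3 had 240 and 354 (1.19, 1.01 to 1.4). XUT1452 had 260 and 279 (0.867, 0.730 to 1.03), most of them in 1 ORF of 114 nt. The most read ORFs of XUT1511 and XUT1452 both overlap LTRs, whose copies can share reads.

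These sequences show the short ORF of XUT1036 and the LTR-overlapping ORFs of XUT1511 and XUT1452, with the start and stop codons in capitals.
XUT1036 ORF 1 (chr4:217076-217108, - strand): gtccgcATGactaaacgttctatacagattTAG
XUT1511 ORF 3 (chr12:818330-818374, - strand): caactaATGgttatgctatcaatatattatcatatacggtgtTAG
XUT1452 ORF 8 (chr11:513788-513910, - strand): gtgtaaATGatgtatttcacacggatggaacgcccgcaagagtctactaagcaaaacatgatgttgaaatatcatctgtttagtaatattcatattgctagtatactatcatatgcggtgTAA

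No XUT with many reads was found in 1 strain only. With reads in upf1 + CHX and none in WT + CHX there were 116 XUTs, which held 198 reads in all, and 68 of them had a single read. The reverse held for 96 XUTs with 152 reads, 64 of them with a single read. XUT1657, antisense to YOL164W-A, led the former with 8 reads. Against the limit of 3 reads that a count of 0 allows, that is a 2.16-fold larger share. The counting error of the 8 reads is left out, so the true fold can be lower. XUT1657 was followed by XUT1079 (7 reads), and by XUT0239, XUT0919 and XUT1768 (5 reads each), which lie antisense to YDR170W-A, PHO8, URN1 and PMA2. XUT1059 led the latter with 6 reads, by the same reckoning a 2.47-fold smaller share. Both leaders were picked as the most read of their kind. XUT0677, antisense to ATG23, had 5 reads, and XUT0248, XUT0296 and XUT1111 had 4.

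Within a transcript, the most read ORF was mostly the same in both strains. Of the 581 compared XUTs with 2 or more read ORFs, 502 (86.4%) had the same most read ORF in both strains. Among the 102 XUTs with 2 or more ORFs of at least 20 reads, the highest and lowest ORF ratio differed by less than 2-fold in 69. The median spread was 1.71-fold, and the part of counting error in it was not tested. None of the 102 had ORFs past 2-fold in both directions. Few single ORFs passed 2-fold either way, as given below, so this absence says little about place. A wide spread was seen in XUT0961, antisense to PDR3, a regulator of multidrug resistance. There the 225-nt ORF 11, which lies opposite PDR3, had 9 reads in WT + CHX and 31 in upf1 + CHX (2.78-fold, 1.29 to 6.65). The 93-nt ORF 4, outside the coding sequence of PDR3, had 19 and 17 (0.723, 0.353 to 1.47). In XUT1150 on chromosome 5 the 18-nt first ORF went from 13 to 41 reads (2.55-fold, 1.34 to 5.19) and the 93-nt ORF 4 from 27 to 18 (0.539, 0.280 to 1.02). Both XUTs were picked among the 5 with the widest spread. Over single ORFs, 49 of 640 with at least 20 reads (7.66%) had a share at least 2-fold larger and 57 (8.91%) one at most 0.5 times as large.

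Grouped by what lies opposite them, ORFs antisense to a CDS took a larger part of the reads in the mutant. Their 2720 non-overlapping ORFs held 9697 reads in WT + CHX, 37.9% (37.3 to 38.5), and 13288 in upf1 + CHX, 42.0% (41.5 to 42.6), a ratio of 1.11 (1.08 to 1.14). ORFs that overlap no CDS took less, going from 61.1% (60.5 to 61.7) to 56.2% (55.7 to 56.8), a ratio of 0.920 (0.900 to 0.940). The same held without CHX, where antisense ORFs had 36.0% of the reads in WT and 48.6% in upf1, a ratio of 1.35 (1.27 to 1.44). Left without the 78 XUTs past 2-fold, the ratio with CHX was 1.08 (1.05 to 1.11). Over all compared ORFs of the XUTs antisense to a CDS, those outside the CDS included, the ratio with CHX was only 1.04 (1.01 to 1.06). The larger part thus belonged to ORFs opposite a CDS more than to antisense XUTs as a whole. Per transcript the difference was small: the median share ratio was 1.02 over 403 antisense XUTs and 0.871 over 225 that overlap no CDS. Of the 33 XUTs with a larger share 26 (78.8%) were antisense, as were 17 (37.8%) of the 45 with a smaller one and 63.9% of all compared. Whether the authors' counting used strand is not given in the sources used here, so reads of an antisense ORF cannot be told from reads of the gene opposite.

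Length also went with the difference under CHX. ORFs over 150 nt held 15.9% (15.4 to 16.3) of the reads in WT + CHX and 19.4% (18.9 to 19.8) in upf1 + CHX, a ratio of 1.22 (1.17 to 1.27), and ORFs of up to 48 nt went from 27.5% (27.0 to 28.1) to 24.7% (24.2 to 25.2), a ratio of 0.897 (0.869 to 0.927). The class between them did not move beyond counting error (0.988, 0.966 to 1.01). Split by both length and strand, long antisense ORFs had a ratio of 1.26 (1.19 to 1.33) and short ORFs away from any CDS 0.869 (0.838 to 0.902). Long ORFs away from a CDS (1.06, 0.990 to 1.13) and short antisense ORFs (0.993, 0.929 to 1.06) had intervals that include 1. Without XUT0468 the ratio of the long ORFs was 1.20 (1.15 to 1.25). Without CHX the long ORFs as a whole had a ratio of 0.988 (0.919 to 1.06), made up of 1.32 (1.18 to 1.47) for the antisense ones and 0.580 (0.519 to 0.649) for those away from a CDS. Short ORFs without CHX had 1.38 (1.15 to 1.67) when antisense and 0.804 (0.730 to 0.886) away from a CDS. The antisense ratio was thus above 1 for both lengths there. The difference between the comparisons was not tested. Of the XUTs with a larger share, 13 of 33 (39.4%) had a most read ORF over 150 nt, against 6 of 45 (13.3%) with a smaller share and 17.4% of all compared.

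Place along the transcript made less difference. First ORFs held 43.1% (42.4 to 43.7) of the reads in WT + CHX and 43.8% (43.2 to 44.3) in upf1 + CHX, a ratio of 1.02 (0.992 to 1.04). ORFs at places 2, 3 and 5 or later also had intervals that include 1. ORFs at place 4 had a ratio of 0.921 (0.861 to 0.984). The number of listed ORFs went with the ratio. XUTs with 10 or more had a median of 1.02 over 326 transcripts, those with 3 to 9 a median of 0.898 over 273, and those with 1 or 2 a median of 0.673 over 32, of which 7 had a share at most 0.5 times that in WT + CHX and none a 2-fold larger one. XUTs whose first ORF is over 150 nt had a median of 1.11 over 43, with 10 past 2-fold upward and 3 downward, against 5.23% and 7.13% of all compared. The base 3 nt before the start codon, where an A favours initiation in yeast, was an A in 15 of 33 most read ORFs of XUTs with a larger share, in 19 of 45 of those with a smaller share and in 35.5% of all compared.

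**Figure D4:**
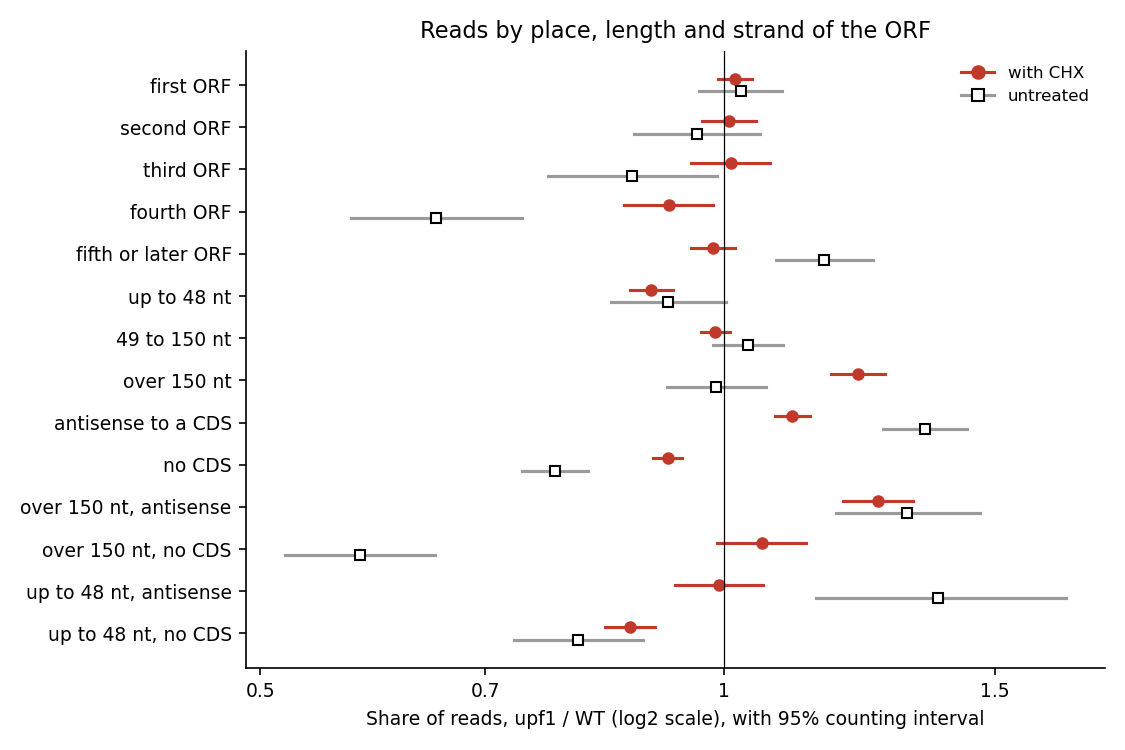
Share ratio, upf1 over WT (log2 scale), of the reads in classes of ORF by place, length and strand, with 95% counting intervals; red circles are cells with CHX and open squares untreated cells. Antisense ORFs lie above 1 in both comparisons (1.11 and 1.35), and ORFs over 150 nt lie at 1.22 with CHX and 0.988 without.

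XUTs were then grouped by the role of the gene they lie opposite. Any listed ORF opposite the gene was enough, so the reads of a XUT can lie in its other ORFs. In XUT1700, ORF 3 held 23 of the 36 reads in upf1 + CHX and overlaps no CDS. For sugar and alcohol metabolism, 25 of 36 XUTs with reads could be compared, with a median ratio of 1.13; 3 passed 2-fold upward and none downward, against 5.23% and 7.13% of all XUTs compared. XUT1700 (RGS2) was followed by XUT0257, antisense to the polyol transporter gene HXT13, with 11 and 38 reads (2.79-fold, 1.40 to 6.06). The lowest were XUT0981, antisense to the alcohol dehydrogenase gene ADH5, with 56 and 35 reads (0.505, 0.321 to 0.784), and XUT1036 (RGT2). For membrane transport, 19 of 38 could be compared, 15 had a ratio above 1, as did 51.4% of all antisense XUTs compared, and the median was 1.24. Here 2 passed 2-fold upward, XUT1352 (DAL4) and XUT0340 (VPS73), and the lowest were XUT0034 (FLR1, a drug exporter, 0.635, 0.261 to 1.51) and XUT0051 (TAT1, an amino acid permease, 0.701).

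For meiosis and sporulation, 16 XUTs could be compared, the median was 0.944 and none passed 2-fold either way. The highest were XUT1304, antisense to the meiotic regulator NDT80, with 17 and 39 reads (1.85-fold, 1.03 to 3.50), and XUT1288, antisense to SPO13, with 31 and 70 (1.83-fold, 1.18 to 2.88). The lowest were XUT0753 (SLZ1, 0.539, 0.253 to 1.11) and XUT0845 (MEK1, 0.701, 0.307 to 1.58). For respiration and the citric acid cycle, 7 were compared with a median of 1.11 and 1 past 2-fold. XUT1646, antisense to the peroxisomal isocitrate dehydrogenase gene IDP3, had 10 and 25 reads (2.02-fold, 0.937 to 4.72), and XUT1693, antisense to the cytochrome c1 gene CYT1, had 49 and 94 (1.55-fold, 1.09 to 2.24). XUT0398, antisense to LSC2, had 102 and 68 (0.539, 0.391 to 0.740), and XUT0692, antisense to CYB2, had 52 and 53 (0.824, 0.551 to 1.23).

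The 5 cell wall XUTs had a median of 1.15 and none past 2-fold. They ran from XUT0781 (DSE4, 0.95) and XUT0203 (EXG2, 1.08) to XUT1707 (SPR1, 1.16) and XUT0567 (MNN4, 1.39). Of 57 genes listed for messenger RNA decay, 55 were found in the annotation. An antisense ORF was listed for 3 of them, and 2 of their XUTs could be compared. XUT0954, antisense to HEK2, which encodes an RNA-binding protein, had 10 and 31 reads (2.51-fold, 1.20 to 5.73), and XUT0814, antisense to the nuclear exonuclease gene RAT1, had 18 and 19 (0.853, 0.424 to 1.72). With these few XUTs per list, no list is set apart from the 5.23% and 7.13% of all XUTs compared.

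The phase score, which runs from 0 to 1 and is higher where the reads of an ORF keep to 1 frame, was compared over the 669 ORFs with at least 10 reads in both groups. Its median was 0.376 in WT + CHX and 0.427 in upf1 + CHX. The median difference per ORF was 0.047, with quartiles of -0.092 and 0.180, and 393 ORFs were higher in upf1 and 274 lower. A score of at least 0.32 was reached by 419 ORFs (62.6%) in WT + CHX and 479 (71.6%) in upf1 + CHX. Both groups reached it for 321 ORFs, upf1 + CHX alone for 158, WT + CHX alone for 98 and neither for 92. With counts within 1.5-fold of each other, 272 of 452 ORFs were higher in upf1 (median difference 0.056). Scores of single ORFs varied far more than their median moved: the median size of the difference was 0.143, and the scores of the groups had a Pearson r of 0.353 and a Spearman rho of 0.289 over ORFs, many of which share reads.

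The higher scores were seen in most classes of ORF. The median difference was 0.070 over 284 first ORFs and 0.033 over 385 later ones. It was 0.038 for ORFs of up to 48 nt, 0.060 for 49 to 150 nt and 0.005 for longer ones, where 49 were higher and 49 lower. Antisense ORFs (0.046) and ORFs that overlap no CDS (0.051) were alike. The long ORFs thus had the largest share ratio of the 3 length classes and the smallest difference in score. In XUTs with a larger share 11 of 22 ORFs scored higher in upf1, and in XUTs with a smaller share 14 of 19 did, on a median of 14 reads in upf1 + CHX and 28 in WT + CHX. The part that read number plays in the latter was not tested.

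**Figure D5:**
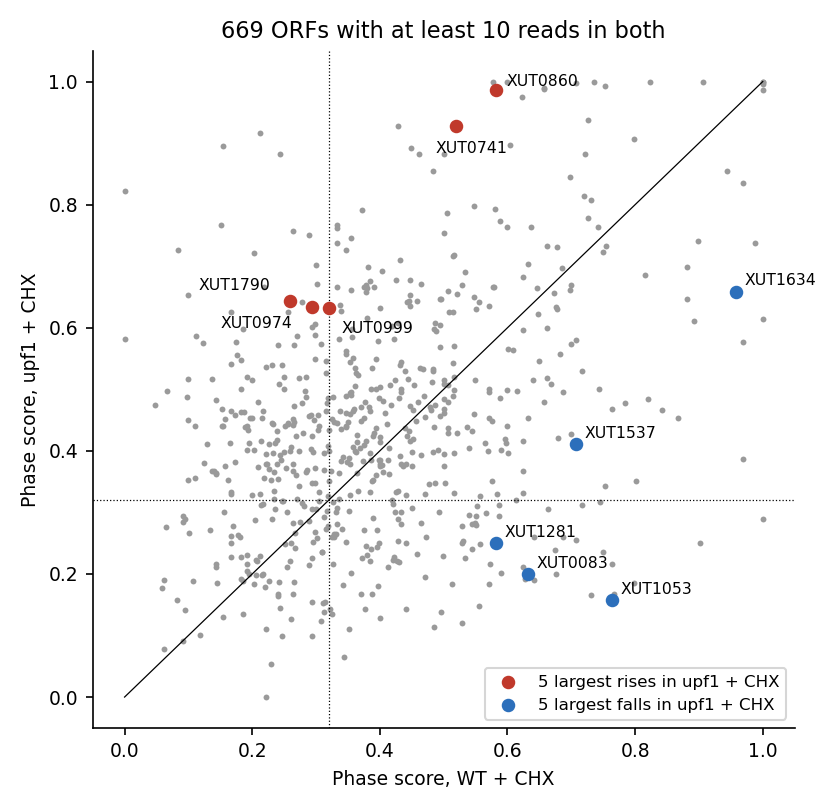
Phase score in upf1 + CHX against WT + CHX for the 669 ORFs compared, with the line of equal scores and dotted lines at 0.32. Red and blue points are the 5 ORFs named for a higher and the 5 for a lower score in upf1 + CHX, and 393 points lie above the line against 274 below.

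Of the 10 ORFs named for their score, from the 96 with at least 20 reads in both groups and no overlap with another listed ORF, 4 first ORFs are printed to show how short they are. Those of XUT0741 and XUT0860 scored higher in upf1, and those of XUT1053 and XUT1634 lower.
XUT0741 ORF 1 (chr13:873051-873104, + strand): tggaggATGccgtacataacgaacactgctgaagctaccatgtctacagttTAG
XUT0860 ORF 1 (chr16:76734-76766, + strand): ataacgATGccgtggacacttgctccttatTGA
XUT1053 ORF 1 (chr4:489176-489208, - strand): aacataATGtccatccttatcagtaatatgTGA
XUT1634 ORF 1 (chr14:525756-525779, - strand): caagttATGtacatctttatgTAA

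XUT0741 runs opposite ADH2, the glucose-repressed alcohol dehydrogenase gene. Its 45-nt first ORF, 190 nt outside the gene, scored 0.520 on 29 reads in WT + CHX and 0.929 on 48 in upf1 + CHX, a difference of 0.409. The first ORF of XUT0860, opposite the Rab GTPase-activating protein gene GYP5, held 29 reads in each group and scored 0.582 and 0.986. The other high differences were those of ORFs in XUT1790 (0.259 to 0.644), XUT0974 antisense to YBR071W (0.294 to 0.633) and XUT0999 near the sulfate transporter gene SUL1 (0.32 to 0.632). In untreated upf1, the ORF of XUT0741 scored 0.465 on 45 reads and that of XUT0974 0.368 on 58. Those of XUT0860, XUT1790 and XUT0999 held 6, 8 and 13 reads there. Untreated WT held at most 3 reads in any of these ORFs.

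The largest score difference in the other direction was that of the first ORF of XUT1053, beside the seryl-tRNA synthetase gene SES1, with 0.764 on 31 reads in WT + CHX and 0.157 on 24 in upf1 + CHX. ORF 3 of XUT0083 went from 0.632 to 0.200 on 22 and 24 reads. Its share ratio was 0.882, with a wide interval that includes 1 (0.474 to 1.65). ORF 5 of XUT1281, opposite YHL042W, had 0.582 and 0.251, the 15-nt first ORF of XUT1634 had 0.958 and 0.659, and ORF 2 of XUT1537, beside the cyclophilin gene CPR3, had 0.707 and 0.411. All 10 were picked as the largest of 96, and none has a replicate.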

How the data were processed

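Ribosome footprints were analysed from 1 deposited table of ORFs in XUTs. The authors deposited, per ORF and condition, a whole-number read count that is not scaled to library size and a phase score, a fraction from 0 to 1. The 2 libraries of a condition are merged into 1 value, so neither depth per library nor a replicate error is known. UMI-tools, cutadapt, HISAT2 2.2.0 and build R64 were used, per the submitters' processing notes. The sources used here do not name the scoring tool, its settings or the counting rule.

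In RefSeq's R64 the listed coordinates of all 13912 ORFs off the plasmid gave an ATG start and an adjoining stop codon. An ORF was antisense if it overlapped a CDS on the opposite strand by any base. A XUT was antisense if any of its listed ORFs was, with or without reads. Non-overlapping ORFs were taken in order of pooled count. Share ratios have exact conditional binomial (Clopper-Pearson) 95% intervals (Python 3.11.15, scipy 1.17.1) and shares exact binomial ones. Both cover counting error only. The count model planned in case the table held single libraries was not run. Code for the ratios was tested on simulated data.

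Named were the 12 XUTs with the highest lower bound and the 12 with the lowest upper bound among those with at least 20 reads, the 5 most read, the 5 with most reads in 1 group only, the 2 ends of each gene list, and 5 ORFs for each score direction. XUT0961 and XUT1150 were named after their values were seen. The members and lists were chosen with earlier results of these data known. Other totals, read minimums and ORF sets were tried as alternatives.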

Additional observations from a re-analysis of the deposited data

Results flagged for a closer look

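At 2 XUTs the share of reads went in opposite directions with and without CHX, with counting intervals on opposite sides of 1, out of 258 XUTs with at least 20 reads in each comparison. The difference between the comparisons was not tested, since each group has 1 merged value. XUT1137, 439 nt from the transcription factor gene ACA1 on chromosome 5 (241940 to 242444), had a 1.72-fold larger share in upf1 with CHX (1.29 to 2.33, 69 reads in WT + CHX and 147 in upf1 + CHX). Untreated it had a ratio of 0.418 (0.294 to 0.600, 48 reads in WT and 106 in upf1). XUT1722, on chromosome 15 (969422 to 969896), had a ratio of 1.38 with CHX (1.14 to 1.67, 180 and 307 reads) and 0.494 untreated (0.388 to 0.632, 95 and 248 reads).

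Reads were also present outside the comparison. The 29 ORFs of the 2-micron plasmid, a multicopy element whose XUTs were left out, held 2552 reads in WT + CHX (7.14% of the table) and 2968 in upf1 + CHX (6.74%). Over non-overlapping ORFs the plasmid's share ratio was 0.871 (0.816 to 0.929).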

How the results depend on the processing

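No paired analysis was possible because the table holds 1 merged value per condition, and for the same reason no library could be left out in turn. The number of XUTs with a larger share followed the read minimum: 33 at 20 reads, 17 of 310 at 50 reads and 55 of 839 at 10 reads. The number with a smaller share was 45, then 9 and 76 at the same minimums. Both numbers stayed within 1.5-fold when all listed ORFs were summed, when the total left out the 5 most read XUTs, when ratios were divided by their median, with the plasmid in the total, and without XUTs over repeats, ribosomal DNA or a same-strand gene, a setting chosen after seeing the data. The median score difference was 0 over the 3971 ORFs with a read in both groups, and 0.049 to 0.056 under the settings with at least 10 reads. The ratio of first ORFs was 0.990 without the XUTs over repeats. That of ORFs over 150 nt was 1.15 with the plasmid in the total and 1.13 without the XUTs past 2-fold. The cause of these changes was not tested. Of the XUTs named, XUT0372 (1.89) and XUT0684 (1.13) had an untreated ratio on the other side of 1, and none changed side with all listed ORFs summed or without the 5 most read XUTs in the total, the 2 other settings run for single XUTs. Without those 5, XUT0233 was at 0.499. With 20 to 50 reads a XUT's interval spans several-fold, so smaller differences were not detectable there.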
